A study of Mus musculus with 3 samples.

Results

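The 10 genes described here encode enzymes of purine and pyrimidine synthesis: Ppat, Gart, Paics, Adsl, Atic, Impdh2 and Gmps on the purine side, and Cad, Umps and Ctps on the pyrimidine side. They were found by gene symbol among the 31053 genes of the count matrices, and all 10 had UMIs (unique molecular identifiers, 1 per captured mRNA molecule) in every library. The libraries are single-cell RNA sequencing libraries (10x Genomics 3' chemistry) of the sensory epithelium of cochlear explants from mice 4 to 6 weeks old. All explants, the controls included, carried 3 alleles, rtTA, tet-on-Myc and tet-on-NICD. NICD is the intracellular, active part of the receptor Notch1, and rtTA drives both transgenes when doxycycline (Dox) is present. The control library came from 4 cultures given water, and each of the 2 Dox libraries came from 4 cultures given 2 µg/ml Dox, all for 4 days. What drives rtTA is not given in these sources, and no library here comes from explants given Dox without the transgenes, so that an effect of Dox itself and of the transgenes cannot be told apart.

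Cells make purine and pyrimidine nucleotides either from small precursors (de novo synthesis) or by recovering bases and nucleosides (salvage). The purine ring is built step by step on ribose phosphate up to inosine monophosphate, from which adenine and guanine nucleotides are made. The pyrimidine ring is completed first and then joined to ribose phosphate. Genes of these steps are among the known transcriptional targets of MYC, which binds the E-box CACGTG, and dividing cells have a high need for nucleotides. Supporting cells of the adult mammalian cochlea, which surround the sensory hair cells, normally do not divide.

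Promoter sequences (RefSeq, GRCm38.p6, from 250 bases before to 50 after the start site, 5′ to 3′ on the gene's strand) were matched for all 10 genes. CACGTG, which reads the same on both strands, was present in the windows of 3 of the 10 genes, Impdh2, Atic and Paics. It was present in 8.09% of the 27025 genes with a window, or in 3 of the 11 windows of the 10 genes against 7.15% of all 32851 windows of that length. The 3 windows that hold it are shown with the E-box in capitals, together with that of Ppat, which lies beside Paics. A match is a description of the letters in these windows and not a binding site.
Impdh2: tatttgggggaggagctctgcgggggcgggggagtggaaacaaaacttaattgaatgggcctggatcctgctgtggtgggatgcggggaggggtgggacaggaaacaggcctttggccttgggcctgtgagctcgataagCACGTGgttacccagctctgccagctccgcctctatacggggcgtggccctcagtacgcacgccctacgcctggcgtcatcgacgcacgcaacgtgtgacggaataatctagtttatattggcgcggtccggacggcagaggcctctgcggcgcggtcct
Atic: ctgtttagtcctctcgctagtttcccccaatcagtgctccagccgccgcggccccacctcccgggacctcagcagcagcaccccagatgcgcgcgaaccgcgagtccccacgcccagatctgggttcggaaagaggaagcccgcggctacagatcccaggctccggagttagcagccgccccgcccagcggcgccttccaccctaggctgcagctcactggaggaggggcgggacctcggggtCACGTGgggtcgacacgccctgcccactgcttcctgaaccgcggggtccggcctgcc
Paics: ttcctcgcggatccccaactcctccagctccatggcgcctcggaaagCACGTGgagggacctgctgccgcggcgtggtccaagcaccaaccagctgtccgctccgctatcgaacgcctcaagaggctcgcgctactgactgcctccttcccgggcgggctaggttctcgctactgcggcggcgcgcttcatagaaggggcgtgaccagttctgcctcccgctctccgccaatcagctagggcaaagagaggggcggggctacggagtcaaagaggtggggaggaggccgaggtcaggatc
Ppat: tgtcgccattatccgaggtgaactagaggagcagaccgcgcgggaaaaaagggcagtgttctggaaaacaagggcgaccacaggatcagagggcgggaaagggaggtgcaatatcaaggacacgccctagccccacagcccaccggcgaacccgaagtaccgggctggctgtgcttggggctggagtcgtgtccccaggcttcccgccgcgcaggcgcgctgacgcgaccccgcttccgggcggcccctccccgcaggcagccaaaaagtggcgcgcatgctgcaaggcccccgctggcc
The windows lie at chr9:108560186-108560485 (+ strand), chr1:71556906-71557205 (+ strand), chr5:76951052-76951351 (+ strand) and chr5:76951529-76951828 (- strand). The first base of the E-box lies 110 bases before the start site of Impdh2, 7 before that of Atic and 203 before that of Paics. Ppat and Paics are read in opposite directions, and their annotated start sites (GENCODE M21, GRCm38) lie 271 bases apart, with overlapping 5′ ends. Of the other genes, Gart (chr16:91621186-91646952) and Umps (chr16:33954782-33967038) lie on 1 chromosome, and Cad (chr5:31054780-31078479) on that of Ppat and Paics. The 3′ end of Impdh2 is overlapped on the other strand by Ndufaf3, and that of Gart by the antisense gene Gm15964. The sources used here do not say whether counting used strand, so reads of these pairs may not be separable.

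The control library held 512 barcodes and 5436731 UMIs, and the Dox libraries held 788 and 1095 barcodes and 20309102 and 33385927 UMIs. After filtering, 363 control cells and 636 and 997 Dox cells remained, with medians of 6887, 16724.5 and 27579 UMIs per cell. Libraries shared barcodes: 101 between the control and Dox replicate 1, 92 between the control and Dox replicate 2, and 68 between the Dox replicates. The copy with fewer UMIs of such a barcode was present in 80 control cells and in 41 and 72 Dox cells and held 1.15%, 0.167% and 0.171% of the UMIs kept. Its median size was 0.606%, 1.33% and 1.39% of that of the larger copy. These copies were left out in an added run, and the calls that this changed are given beside them. Notch1, whose intracellular part the transgene encodes, stood at 38.1 CPM (a gene's UMIs scaled to a fixed total) in the control and at 456 and 354 with Dox in all cells summed, and Myc at 33.0, 64.4 and 57.2. Both were higher in the libraries labelled Dox. Whether the transgene transcripts carry the counted 3′ ends is not stated.

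Counts were summed over the cells of a library and compared between Dox and control. CPM values in these comparisons are scaled by edgeR's TMM method, and a gene was called at a Benjamini-Hochberg adjusted p of 0.05 or less in edgeR's quasi-likelihood test over all genes tested. With 1 control library the p-values measure only how far the 2 Dox libraries differ, a spread that may be technical, and the control is assumed to vary like them. Each UMI marks the 3′ end of 1 molecule, so counts do not grow with transcript length. In all cells summed, 9 of the 10 genes rose with Dox and 0 fell, where 9.35% of the 15426 genes tested rose and 7.82% fell. Both Dox libraries lay above the control for 10 of the 10 genes, as they did for 43.5% of all genes. The median log2 fold change of the 10 genes was 1.61, against -0.01 over all genes. A change in the mix of cell types and a change within cells cannot be told apart in these sums. The 22 mesenchyme markers summed to 9090 CPM in the control and to 988 and 917 with Dox.

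Cells were therefore also compared within classes. The clusters were built without the 10 genes and the other genes of nucleotide metabolism, and named where at least 3 markers of a type led them. Supporting cell-like cells (cluster 9; 29 control, 57 and 28 Dox cells) were named from 8 markers, among them Gjb2, Gjb6, Sox2, Fabp7 and Hes5. Epithelium-like cells were this cluster and cluster 2 together (33, 104 and 154 cells). Cluster 2 gave 4 of the 33 control cells of that class, 47 of 104 in Dox replicate 1 and 126 of 154 in Dox replicate 2, so that the groups differ in their mix of clusters. Glia-like cells (28, 38 and 49) were named from 5 glia markers, and macrophage-like cells (23, 49 and 29) from 7 markers, among them Lyz2 and C1qa. Cluster 5 (Epyc, Lum and Aqp4; 13, 47 and 83 cells) and cluster 6 (Vmo1 and Crhbp; 17, 28 and 97 cells) had 2 epithelium markers among their leading genes, under the 3 needed for a name. These last 2 comparisons were added after the cells had been counted, at a lower minimum of 10 cells and 200000 UMIs in every library. Mesenchyme-like cells were not tested, since Dox replicate 1 held 13 of them, under the 20 cells needed for a named class.

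**Figure D1:**
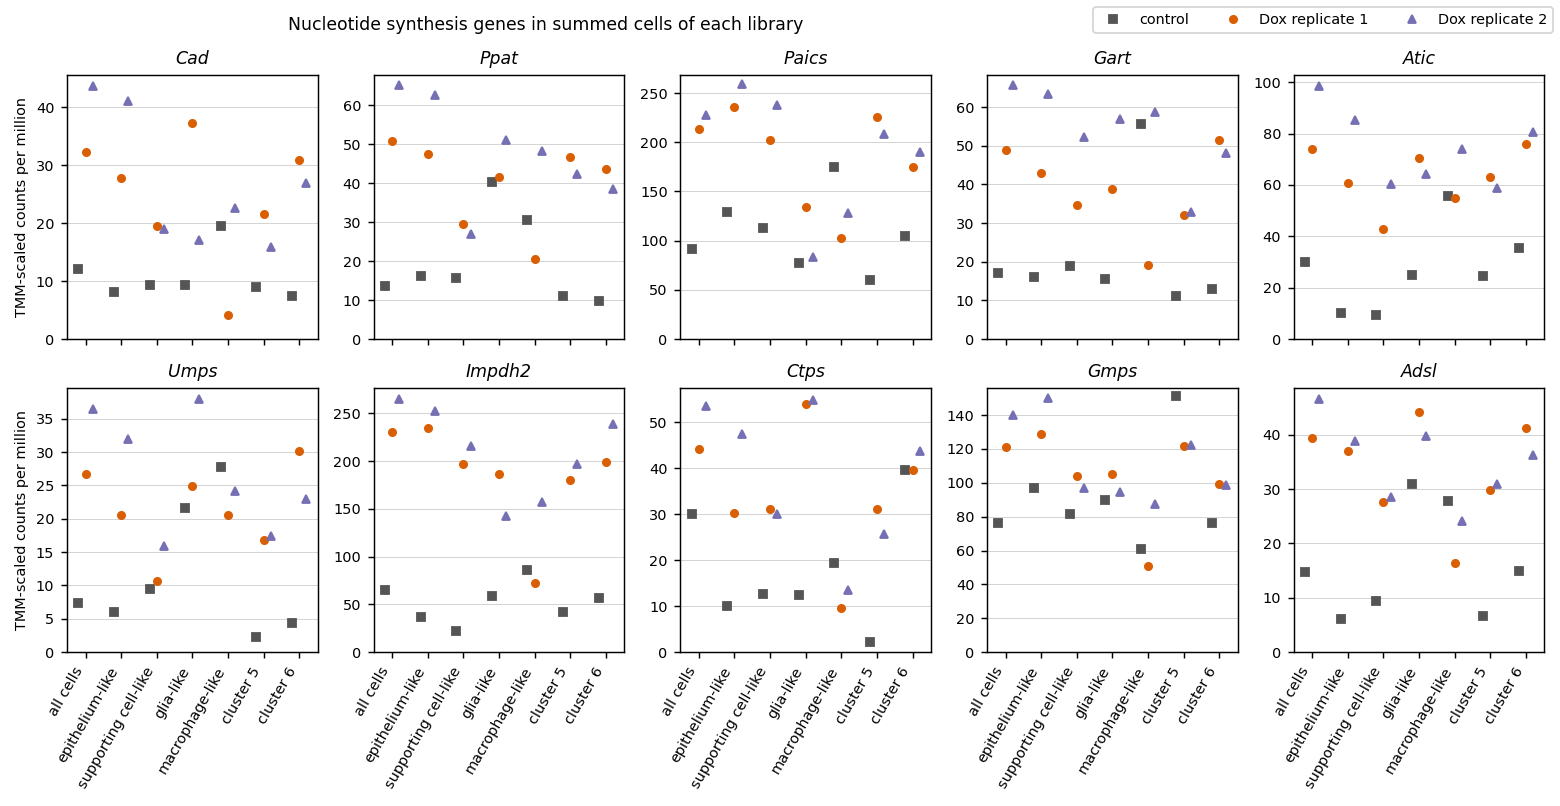
TMM-scaled CPM (vertical axes) of each of the 10 genes in the summed cells of each library, for all cells and 6 cell groups (horizontal axes); grey squares stand for the control, orange circles for Dox replicate 1 and purple triangles for Dox replicate 2. In all cells both Dox libraries lie above the control for every one of the 10 genes, and in macrophage-like cells they do so for none.

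The purine pathway begins with Ppat, the amidotransferase of its first committed step. In all cells summed Ppat stood at 13.5 CPM in the control and at 50.8 and 65.1 in Dox replicates 1 and 2. Both Dox libraries were well above the control, a log2 fold change of 2.10 (SE 0.25, edgeR adjusted p = 0.0229). It also rose in cluster 5, from 11.1 CPM to 46.6 and 42.4 (log2 fold change 1.99, SE 0.49, edgeR adjusted p = 0.00266), and in cluster 6, from 9.64 to 43.6 and 38.4 (2.06, SE 0.37, edgeR adjusted p = 0.00812). The supporting cell-like values were 15.7, 29.5 and 27.0 CPM, a difference that did not pass the test (edgeR adjusted p = 0.45). In glia-like cells the level was already 40.2 CPM in the control, next to 41.5 and 51.1 with Dox, and the log2 fold change was 0.19 (SE 0.46).

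Gart carries 3 enzyme activities of the purine ring's assembly in 1 protein. All cells summed gave 17.1 CPM in the control and 48.9 and 65.7 with Dox (log2 fold change 1.74, SE 0.27, edgeR adjusted p = 0.0294). For Gart the rise passed the test in cluster 6 (12.9, 51.5 and 48.1 CPM, log2 fold change 1.94, SE 0.33, edgeR adjusted p = 0.00625) and in cluster 5 (11.1, 32.2 and 32.9 CPM, 1.54, SE 0.53, edgeR adjusted p = 0.0339). The cluster 5 call held in 4 of 8 alternatives, and the edgeR adjusted p was 0.0899 with total count scaling. Supporting cell-like cells had 18.8, 34.8 and 52.3 CPM from 6, 59 and 33 UMIs, and glia-like cells 15.5, 38.7 and 56.8 CPM. Neither of these passed the test, although both Dox libraries lay above the control in each.

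Paics, a bifunctional enzyme of the middle steps and the head-to-head neighbour of Ppat, stood at 91.6 CPM in all control cells and at 213 and 228 with Dox. The log2 fold change was 1.27 (SE 0.14, edgeR adjusted p = 0.0226). The largest change of Paics among the groups tested was in cluster 5, at 60.1 CPM in the control and 226 and 209 with Dox (log2 fold change 1.85, SE 0.27, edgeR adjusted p = 9.02e-07). The control of cluster 5 was 13 cells, of which 3 held 46.3% of the UMIs. Cluster 6 rose from 105 to 174 and 190 CPM (0.80, SE 0.20, edgeR adjusted p = 0.0288). In supporting cell-like cells the values were 113, 203 and 238 CPM, with a log2 fold change of 0.96 (SE 0.29) that missed the threshold (edgeR adjusted p = 0.0884). Glia-like Dox replicate 2 (83.4 CPM) was close to the control (77.4), while Dox replicate 1 had 134.

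Adsl, which acts both in the purine ring's assembly and in making adenine nucleotides, stood at 14.7 CPM in all control cells and at 39.5 and 46.7 with Dox (log2 fold change 1.56, SE 0.21, edgeR adjusted p = 0.0261). It rose in epithelium-like cells, from 6.06 CPM to 37.1 and 38.9 (edgeR adjusted p = 0.0393). The control value there rests on 3 UMIs, and the ratio of pooled counts was 6.29 (counting interval 2.14 to 30.6). In cluster 5 it rose from 6.67 CPM, again 3 UMIs, to 29.8 and 31.0 (ratio 4.57, counting interval 1.53 to 22.4, edgeR adjusted p = 0.00856). Cluster 6 gave 15.0, 41.2 and 36.4 CPM (log2 fold change 1.35, SE 0.33, edgeR adjusted p = 0.0298).

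Atic carries the last 2 activities before inosine monophosphate. Its level over all cells was 30.2 CPM in the control and 74.0 and 98.5 with Dox (log2 fold change 1.52, SE 0.25, edgeR adjusted p = 0.0323). Epithelium-like cells rose from 10.1 CPM (5 UMIs) to 60.7 and 85.3 (log2 fold change 2.85, SE 0.54, edgeR adjusted p = 0.0455). This call held in 6 of 10 alternatives, and not with the lower copies of shared barcodes left out (edgeR adjusted p = 0.0533). Supporting cell-like cells had 9.40 CPM in the control and 43.0 and 60.2 with Dox. The control value was 3 UMIs, the ratio 5.07 (counting interval 1.69 to 24.97), and the difference just missed the threshold (edgeR adjusted p = 0.0598). With the lower copies left out this difference was called (edgeR adjusted p = 0.0409). Atic rose in cluster 5 (24.5, 63.0 and 58.7 CPM, edgeR adjusted p = 0.011) and in cluster 6 (35.4, 76.1 and 80.4 CPM, edgeR adjusted p = 0.0136) as well.

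Impdh2, the rate-limiting enzyme of guanine nucleotide synthesis, was called in 6 of the 7 cell groups compared, all but the macrophage-like cells. The groups overlap, since all cells contain the others and epithelium-like cells contain the supporting cell-like cells. In all cells Impdh2 stood at 65.1 CPM in the control and at 230 and 265 with Dox (log2 fold change 1.93, SE 0.17, edgeR adjusted p = 0.0207). In supporting cell-like cells it stood at 21.9 CPM in the control (7 UMIs) and at 197 and 216 with Dox (335 and 136 UMIs). Both Dox libraries were far above the control, with a log2 fold change of 3.22 (SE 0.39, edgeR adjusted p = 0.00114) and a ratio of pooled counts of 9.22 (counting interval 4.44 to 23.1). It was the only 1 of the 10 genes called in supporting cell-like cells, where 4.61% of the 8316 genes tested rose and 1.97% fell. The Impdh2 call there was lost when cells of little Malat1, a nuclear RNA, were left out (edgeR adjusted p = 0.051, log2 fold change 3.09) and when each library was clustered alone (edgeR adjusted p = 0.278, log2 fold change 2.13). In these runs 1 of 7922 and 0 of 10359 genes were called at all, with 1533 and 1264 at an unadjusted p under 0.05.

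Epithelium-like cells rose in Impdh2 from 36.4 CPM to 234 and 252 (log2 fold change 2.74, SE 0.24, edgeR adjusted p = 0.00661). Glia-like cells rose from 58.8 to 187 and 142 (1.49, SE 0.38, edgeR adjusted p = 0.0175), cluster 5 from 42.3 to 180 and 196 (2.16, SE 0.30, edgeR adjusted p = 2.03e-07) and cluster 6 from 56.8 to 199 and 239 (1.95, SE 0.23, edgeR adjusted p = 0.00137). The Dox libraries lay above the control in each of these groups, with no overlap. Ndufaf3, which overlaps the 3′ end of Impdh2 and serves the assembly of respiratory complex I, stood at 39.2 CPM in all control cells and at 27.7 and 25.9 with Dox, below the control in both.

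Gmps makes guanosine monophosphate in the step after Impdh2 and changed least of the 9 genes called in all cells. The values were 76.5 CPM in the control and 121 and 140 with Dox (log2 fold change 0.77, SE 0.16, edgeR adjusted p = 0.0493). This call held in 5 of 9 alternatives, and under total count scaling the edgeR adjusted p was 0.0930. Gmps passed the test in no single cell group. Supporting cell-like cells had 81.5, 104 and 96.7 CPM, glia-like cells 89.7, 105 and 94.7 CPM, and cluster 5 had 151 CPM in the control against 122 and 123 with Dox. Impdh2 and Gmps, which act in consecutive steps, thus had log2 fold changes of 3.22 and 0.31 (SE 0.31) in supporting cell-like cells, and this difference between the genes was not tested.

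On the pyrimidine side, Cad carries the first 3 enzyme activities in 1 protein. It stood at 12.03 CPM in all control cells and at 32.3 and 43.7 with Dox (log2 fold change 1.66, SE 0.28, edgeR adjusted p = 0.0331). It rose in cluster 6, from 7.50 CPM to 30.9 and 27.0 (1.91, SE 0.43, edgeR adjusted p = 0.0201). Epithelium-like cells had 8.08 CPM of Cad in the control (4 UMIs) and 27.7 and 41.0 with Dox (134 and 255 UMIs). This difference did not pass the test (edgeR adjusted p = 0.112), with a pooled ratio of 4.36 (counting interval 1.69 to 16.1). Control counts of Cad were few in the glia-like and supporting cell-like classes, with 3 UMIs each. Supporting cell-like values were 9.40, 19.4 and 19.0 CPM, with a pooled ratio of 2.06 (counting interval 0.66 to 10.3), so that no difference was detectable at this depth.

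Umps completes the pyrimidine nucleotide uridine monophosphate. Its level in all cells was 7.42 CPM in the control and 26.8 and 36.5 with Dox (log2 fold change 2.09, SE 0.30, edgeR adjusted p = 0.028). Cluster 6 rose from 4.29 CPM (4 UMIs) to 30.1 and 22.9 (2.56, SE 0.54, edgeR adjusted p = 0.0163). Cluster 5 rose from a single control UMI to 35 and 46 UMIs (edgeR adjusted p = 0.0255), and the ratio was 7.71 (counting interval 1.35 to 308). In supporting cell-like cells the values were 9.40, 10.6 and 15.9 CPM from 3, 18 and 10 UMIs. The Dox values lay close to the control there (ratio 1.28, counting interval 0.395 to 6.58).

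Ctps, which turns uridine into cytidine nucleotides, was the 1 gene of the 10 not called in all cells, at 29.99 CPM in the control and 44.3 and 53.5 with Dox (log2 fold change 0.71, SE 0.20, edgeR adjusted p = 0.0819). Its level in the control differed between groups. Mesenchyme-like cluster 12, nearly all of whose cells were in the control, had 56.6 CPM of Ctps without TMM scaling (95% Poisson interval 45.5 to 69.5). Cluster 6 had 39.6 TMM-scaled CPM in the control next to 39.6 and 43.8 with Dox. In glia-like cells, by contrast, Ctps rose from 12.4 CPM (4 UMIs) to 53.9 and 54.9 (log2 fold change 2.11, SE 0.59, edgeR adjusted p = 0.0293). This call held in 8 of 10 alternatives, with an edgeR adjusted p of 0.0516 under DESeq2 size factors and a DESeq2 adjusted p of 0.613. The 16 glia markers summed to 6807 CPM in the control of that class and to 1884 and 2914 with Dox, and at resolution 2 a cluster of 15 of its control cells held 0 Dox cells, and their part in the result was not tested. Cluster 5 went from 1 control UMI to 65 and 68 UMIs (edgeR adjusted p = 0.00102, ratio 12.7, counting interval 2.23 to 504). Supporting cell-like values were 12.5, 31.2 and 30.1 CPM and did not pass the test (edgeR adjusted p = 0.268).

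**Figure D2:**
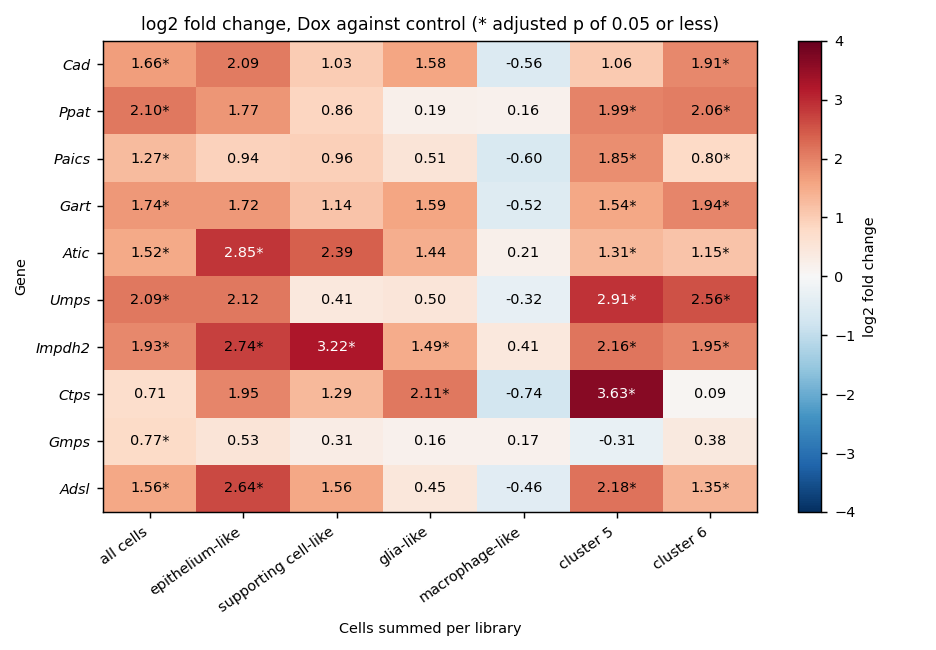
Fitted log2 fold change of Dox against control (colour scale and printed values) for the 10 genes (rows) in all cells and 6 cell groups (columns); a star marks an edgeR adjusted p of 0.05 or less. Impdh2 carries a star in every column but the macrophage-like one, Gmps only in all cells, and the macrophage-like column has none.

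Counted over the 10 genes, 3 rose in epithelium-like cells (Impdh2, Atic and Adsl; 3.76% of all genes tested rose and 2.62% fell), 1 in supporting cell-like cells, 2 in glia-like cells (Impdh2 and Ctps; 3.63% rose and 3.97% fell), 8 in cluster 5 (8.35% and 8.36%) and 8 in cluster 6 (7.9% and 8.41%). None fell in these groups. In the control, 3 cells held 46.3% of the UMIs of cluster 5 and 34.3% of those of cluster 6. In Dox replicate 1, 3 cells held 36.3% of the UMIs of cluster 6. Epithelial markers were lower with Dox in cluster 5 (14460, 7589 and 7618 CPM) and cluster 6 (15184, 7052 and 9197), as were mesenchyme markers (2355, 389 and 784, and 583, 116 and 126), and their part in the counts was not tested. In cluster 5 the 2 others were Gmps and Cad, and in cluster 6 Gmps and Ctps. Both Dox libraries lay above the control for 10 of 10 genes in epithelium-like, supporting cell-like and glia-like cells and in cluster 6, and for 9 of 10 in cluster 5, against 50.2%, 42.8%, 40.5%, 43.3% and 46.1% of all genes. The median log2 fold changes of the 10 genes were 2.02, 1.08 and 0.98 in epithelium-like, supporting cell-like and glia-like cells and 1.92 and 1.63 in clusters 5 and 6. Over all genes the same medians lay between 0.02 and 0.13. With total count scaling the median of all genes was -0.30 in all cells and -0.46 in supporting cell-like cells, and that of the 10 genes 1.31 and 0.60. Of the genes called in all cells, 54.5% were rises with TMM and 30.3% with total count scaling, and in supporting cell-like cells 70.0% and 25.8%. Among the 10 genes 8 rose in all cells and 1 in supporting cell-like cells with total count scaling.

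In macrophage-like cells none of the 10 genes was called in either direction by edgeR, 0 had an unadjusted p under 0.05, and DESeq2 called 0 of the 2 genes it gave an adjusted p. The SE of the log2 fold changes was 0.51 (Paics) to 1.05 (Cad) there, so that missing calls do not show that the genes did not change. Of all genes 0.245% rose and 0.323% fell there. Both Dox libraries lay above the control for 0 of the 10 genes (35.7% of all genes) and below it for 4, Paics, Adsl, Umps and Ctps. The share of all genes below the control in both was not counted, so the 4 cannot be set against it. Paics stood at 175 CPM in the control and at 103 and 128 with Dox. Impdh2 stood at 86.2 CPM in the control, 72.6 in Dox replicate 1 and 157 in Dox replicate 2, so that the control lay between the Dox libraries. Gart had 55.6, 19.2 and 58.8 CPM. The median log2 fold change of the 10 genes was -0.39. The top 3 cells held 50.6% of the control UMIs of this class, and with the 2% of cells with the most UMIs left out of each library the median was 0.77. At clustering resolution 2 macrophage-like cells (19, 42 and 12) and neutrophil-like cells (4, 7 and 17) formed separate clusters, and the median over the former was 0.76. Macrophage markers summed to 22851, 25727 and 10526 CPM in this class, neutrophil markers to 13522, 21973 and 14959 and epithelial markers to 19.6, 72.7 and 823, and their part in the result was not tested.

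In macrophage-like cells Notch1 stood at 66.7 CPM in the control and at 175 and 161 with Dox, and Myc at 52.8, 24.6 and 42.2, neither of them called. Supporting cell-like Notch1 stood at 47.0, 469 and 490 CPM and was called, and Myc at 12.5, 43.0 and 69.8 (edgeR adjusted p = 0.0964). The difference of the Dox effect between macrophage-like cells and each of 4 other groups was tested with an interaction term in edgeR, added after the classes had been seen. None of the 10 genes passed, which does not show that the effects were alike. The lowest values were for Gart against cluster 6 (log2 difference 2.45, SE 0.79, edgeR adjusted p = 0.0836) and Paics against cluster 5 (2.42, SE 0.56, edgeR adjusted p = 0.0892). In that test 0 to 176 of the 9506 to 10212 genes compared were called.

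Because Dox cells carried more UMIs than control cells, detection was also compared with every cell thinned to 3000 UMIs, which left 210 control cells and 465 and 789 Dox cells and left out 153, 171 and 208. In these cells 58.1% of the control had at least 1 UMI from any of the 10 genes, against 84.5% and 88.6% with Dox. A control cell held 0.905 of the 10 genes on average, and a Dox cell 1.91 and 2.17. Impdh2 was seen in 13.3% of control cells (95% Clopper-Pearson interval 9.05% to 18.7%) and in 46.2% and 46.6% of Dox cells, and Paics in 21.4%, 41.5% and 45.9%. Gmps shares lay together at 27.6%, 28.4% and 27.5%. Without thinning they were 43.3%, 62.7% and 72.3% for Gmps and 40.5%, 71.1% and 76.9% for Impdh2. No cell type known to lack these enzymes was among the clusters, so a background from free RNA was not measured. Supporting cell-like cells held 0.714 of the 10 genes in the control and 1.56 and 1.64 with Dox (14, 41 and 22 cells), and macrophage-like cells 0.933, 0.903 and 1.00 (15, 31 and 20 cells).

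**Figure D3:**
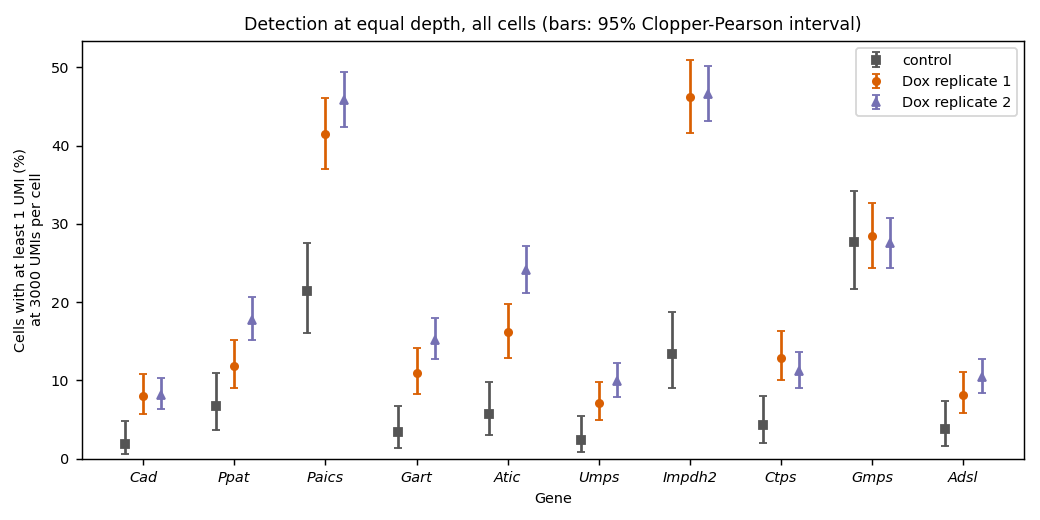
Percent of cells with at least 1 UMI of each of the 10 genes (vertical axis) after thinning each cell to 3000 UMIs, for all cells of the control and of Dox replicates 1 and 2; bars are 95% Clopper-Pearson intervals and cover counting error only. The control lies below both Dox libraries for Impdh2 (13.3% against 46.2% and 46.6%), while the Gmps shares (27.6%, 28.4% and 27.5%) overlap.

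Across clusters, the summed level of the 10 genes (CPM without TMM scaling) ranged from 358 in macrophage-like cells to 987 in cluster 13 in Dox replicate 1, leaving out groups under 20 cells. Cluster 3, left out there with 19 cells, stood at 1227. In Dox replicate 2 the summed level ranged from 617 in glia-like cells to 1275 in cluster 10. Clusters 10 and 13 are led by histone and mitosis genes and held 39 and 24 cells in Dox replicate 1, 67 and 54 in Dox replicate 2 and 4 and 0 in the control. Cells of little Malat1 made up 84.6% and 71.6% of cluster 10 in Dox replicates 1 and 2, with medians of 2977 and 2597 UMIs. Its 4 control cells were all lower copies of shared barcodes. Such cells of little Malat1 also made up 90.8% and 88.1% of cluster 0 with Dox. In Dox replicate 2, clusters 3, 7 and 13 followed cluster 10 at 1137, 1120 and 1112, then cluster 0 at 1042 and cluster 2 at 983. Their neighbours in this order overlapped in their counting intervals, except for the step from cluster 10 (95% Poisson interval 1162 to 1396) to cluster 3 (1114 to 1161) and that from cluster 2 (958 to 1008) down to pericyte-like cluster 1 (784 to 859). Clusters 6, 5 and 9 lay below these at 781, 722 and 704. Control levels were closer together: supporting cell-like cells had 369, clusters 7 and 12 of mesenchyme-like cells 395 and 396, glia-like cells 414 and macrophage-like cells 562. By these sums macrophage-like cells were the highest of these 5 in the control and the lowest of the ranked clusters in Dox replicate 1. In the control, 3 macrophage-like cells held 50.6% of the UMIs of their class. With cells thinned to 3000 UMIs the control order differed, at 1.13 of the 10 genes per glia-like cell and 0.933 per macrophage-like cell. Cluster 4, in which 60 of the 67 control cells were lower copies of shared barcodes, was left out of this order.

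**Figure D4:**
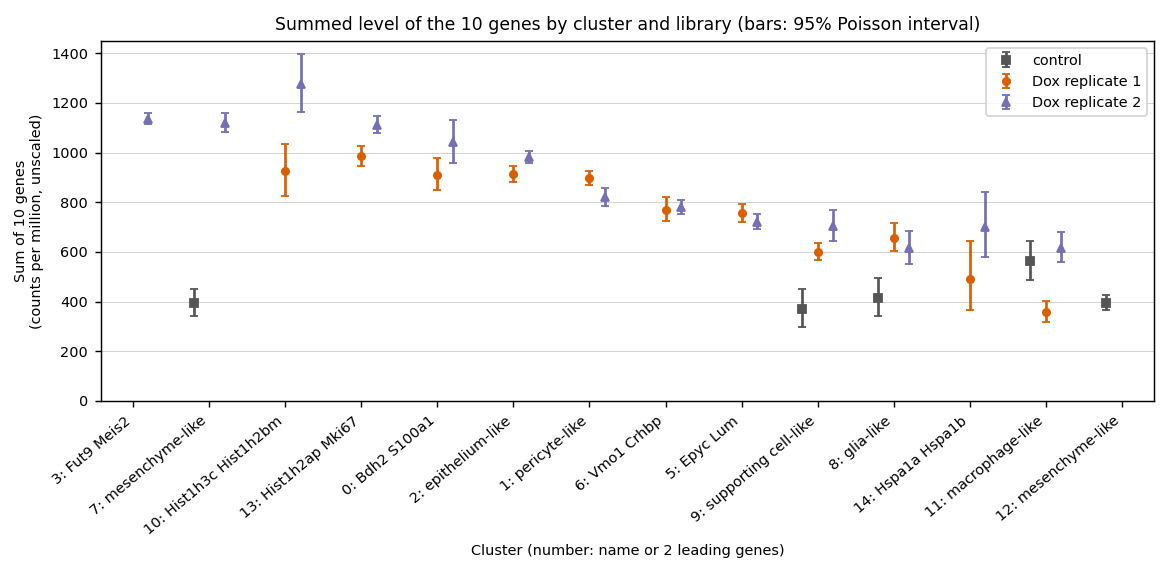
Summed level of the 10 genes in CPM without TMM scaling (vertical axis) by cluster (horizontal axis, ordered by the mean of the Dox libraries) and library, where a library held at least 20 cells of the cluster, with cluster 4 left out; bars are 95% Poisson intervals. The control values plotted sit between 369 and 562, and Dox values reach 1275 in cluster 10, with macrophage-like Dox replicate 1 at 358.

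Cluster 13, whose leading genes include Mki67, was set beside the epithelium-like cluster 2. Cycling markers summed to 4019 and 3953 CPM in cluster 13 with Dox and to 2301 and 1454 in cluster 2, and were thus present in both clusters. The sums of the 10 genes were 987 and 1112 CPM in the Dox replicates in cluster 13 and 913 and 983 in cluster 2, lower in cluster 2 in both libraries. Gart was higher in cluster 13, at 69.4 and 84.2 against 45.1 and 60 CPM, as was Ctps, at 57.1 and 61.2 against 28.4 and 45.9. Impdh2 lay close together, at 224 and 248 against 243 and 237 CPM, and so did Paics, at 237 and 229 against 243 and 242. In the sum of the 10 genes only cluster 3 exceeded cluster 13 in both Dox libraries, at 1227 (19 cells) and 1137 CPM. Its cycling markers summed to less, 1765 and 2767 CPM, and none was among its leading genes. In Dox replicate 2 the counting intervals of the sums of clusters 3 and 13 overlapped. All these values are unscaled CPM without a test, since cells of a library are not replicates.

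The 15 cycling markers summed to 698 CPM in all control cells and to 1597 and 1821 with Dox, with all 15 detected in each library. In cluster 5 they summed to 18.6, 438 and 481 CPM and in cluster 6 to 89.0, 911 and 604. In the same library order, 3 cells held 75%, 56.6% and 46.9% of these UMIs in cluster 5 and 96.2%, 89.0% and 40.6% in cluster 6. The part of the cycling markers in the results there was not tested. In glia-like cells they summed to 20.2 CPM in the control, 107 in Dox replicate 1 and 18.2 in Dox replicate 2, so that the Dox replicates lay on different sides. Impdh2 stood at 58.8, 187 and 142 CPM in the same sums. Macrophage-like cycling sums were 1041, 862 and 1527 CPM, and 3 cells held 97.8% of the cycling UMIs of the control there. In supporting cell-like cells the cycling markers summed to 65.3, 409 and 94.0 CPM, higher in both Dox libraries, and 3 cells held 87.6% and 87.9% of their UMIs with Dox. The epithelium-like sums were 3050, 1589 and 1312 CPM, but 3 cells held 99.2% of the cycling UMIs of the control, which are mostly those of the 4 control cells of cluster 2. The part of these values, and of the mix of clusters, in the results was not tested. The 24 epithelial markers summed to 8183 CPM in supporting cell-like control cells and to 5472 and 4160 with Dox, and the 16 supporting cell markers to 3561, 2226 and 2627, and the part of this in the results was not tested. Cells of little Malat1 made up 41.4%, 56.1% and 46.4% of the supporting cell-like cells, and 3 cells held 45.5% of the control UMIs of that class.

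Of the other genes of nucleotide metabolism, most of those called in all cells rose as well, by list as follows. Over all genes tested there, 9.35% rose and 7.82% fell. Of 10 further genes of de novo synthesis, 4 rose and 0 fell: Dhodh, the mitochondrial pyrimidine enzyme between Cad and Umps (4.94, 16.4 and 19.0 CPM), Pfas, a purine ring enzyme (9.23, 21.8 and 28.4 CPM), and Prps1 and Prps2, which make the activated ribose phosphate. Their median log2 fold change was 0.80. Of 12 genes of folate-bound carbon supply 5 rose and 1 fell. Shmt1, which loads carbon from serine onto folate, stood at 2.47 CPM in the control and at 25.2 and 33.3 with Dox (log2 fold change 3.56, SE 0.34, edgeR adjusted p = 0.0207), and Ggh, which removes glutamates from folate, fell from 45.5 CPM to 20.8 and 19.2. Of 11 genes of deoxynucleotide supply 8 rose and 0 fell, with a median of 1.64. Dctd, a deaminase of deoxycytidylate, stood at 4.78, 37.1 and 43.6 CPM, and Dctpp1 and Dut, which remove unwanted deoxynucleotides, at 44.2, 202 and 258 and at 44.0, 207 and 247 CPM.

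Of 10 nucleotide kinases 2 rose, among them Guk1, which phosphorylates guanosine monophosphate (71.9, 123 and 135 CPM), and 0 fell. Salvage was mixed: of 15 genes 3 rose and 1 fell, next to 9.35% and 7.82% of all genes tested in all cells. The risers were Aprt, which recovers adenine (121, 259 and 310 CPM), the uridine kinase Uck2 (22.2, 69.2 and 94.9 CPM) and the adenosine kinase Adk, while the nucleoside transporter Slc29a1 fell from 60.5 to 25.6 and 33.1 CPM. The median of the salvage list was 0.16. Of 12 genes of breakdown 9 could be tested, 1 rose (Ampd2) and 2 fell (Ampd3 and Gda), with a median of -0.95. Among supporting cell-like cells 3 of 8 deoxynucleotide genes tested rose, where 4.61% of all genes tested rose and 1.97% fell. Dut stood at 15.7 CPM in the control and at 114 and 113 with Dox, and Dctpp1 at 47.0, 146 and 149. Dctd had 0 control UMIs there. Against a floor of 3 control counts its ratio was 3.88, and the lower limit of the counting interval of its ratio was 3.09. In that class 0 of 7 further de novo genes, 0 of 6 carbon supply genes, 2 of 8 kinases and 1 of 10 salvage genes (Aprt) were called, all of them rises. In macrophage-like cells 0 genes of these 6 lists were called, where 0.245% of all genes tested rose and 0.323% fell.

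The genes whose level followed the sum of the 10 most closely across 32 sums of cluster and library, among 8729 genes, were Hspd1 (Pearson r 0.914), Dctpp1 (0.901), Tcp1 (0.898), Npm1 (0.898), Apex1 (0.895), Lyar (0.890), Phb2 (0.888) and Gtf3a (0.882). Hspd1 and Tcp1 belong to chaperonins and Npm1 to the nucleolus. Mki67 gave r 0.54, Notch1 0.26 and Myc 0.05. Each of the 10 genes against the sum of the other 9 gave r from 0.36 for Ctps to 0.78 for Gmps. The sums share 3 libraries, and cells of a library share depth and handling, so these values are descriptions. Cluster 4, left out of the cluster order above, was among these sums.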

How the data were processed

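UMI counts per gene and cell were deposited by the authors as 10x matrices. Per the submitters' processing notes, Cell Ranger 5.0, STAR and Seurat 3.2.2 were used with mm10/GRCm38, while the matrices give software version 3.1.0 per the file headers. Barcodes under 200 genes or over 20% mitochondrial UMIs were left out, and no doublet caller was run. Cells were clustered with scanpy 1.11.5 and Leiden (leidenalg 0.10.2, resolution 1, 2000 variable genes, 30 components, 15 neighbours), with 80 genes of nucleotide metabolism kept out of the variable genes. Counts were summed per library and class (at least 20 cells) and fitted with edgeR 4.0.16 in R 4.3.3 (TMM, filterByExpr, quasi-likelihood test, Benjamini-Hochberg over all genes tested), with 1 residual degree of freedom. DESeq2 1.42.0 was an alternative. The fits were tested on simulated data. Intervals cover counting error only. The genes described, the other gene lists and the markers were chosen with earlier results of these data known. All 10 genes were named in every comparison, and up to 4 of each other list by smallest p.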

Additional observations from a re-analysis of the deposited data

How the results depend on the processing

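No paired analysis was possible because the single control library carries no replicate number that pairs it with a Dox library. The number of the 10 genes called in all cells, 9, was 5 with cells thinned to 1000 UMIs. In epithelium-like cells, 3 became 9 without the low-count filter, 7 without the 2% of cells with the most UMIs, 1 with thinning, 1 without cells of little Malat1 and 0 with each library clustered alone. In supporting cell-like cells, 1 became 3 without the filter, 2 with the strict cell filter, 2 without lower copies of shared barcodes, 0 without cells of little Malat1 and 0 with each library clustered alone. In glia-like cells, 2 became 1 with DESeq2 size factors and 0 with the DESeq2 Wald test. In cluster 5, 8 became 5 with total count scaling, 2 with the DESeq2 Wald test and 0 with thinning, and in cluster 6, 8 became 1 with the DESeq2 Wald test. The DESeq2 Wald test gave an adjusted p for 6 of the 10 genes in glia-like cells, 5 in cluster 5 and 8 in cluster 6, and thinning in cluster 5 left 2. The part of these missing values in the changes was not tested, nor was any other cause.

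Log2 fold changes turned sign with total count scaling in supporting cell-like cells (Umps -0.068, Gmps -0.18), glia-like cells (Ppat -0.050, Gmps -0.083) and cluster 6 (Ctps -0.042). Gmps was -0.24 in supporting cell-like cells with each library clustered alone and 0.38 in cluster 5 with thinning. In macrophage-like cells the values without Dox replicate 2 and without Dox replicate 1 were -2.18 and 0.21 for Cad, -1.53 and 0.072 for Gart, -0.57 and 0.65 for Ppat, -0.022 and 0.40 for Atic, -0.25 and 0.85 for Impdh2 and -0.27 and 0.51 for Gmps. Signs also turned there without the 2% of cells with the most UMIs (Paics 0.30, Gart 0.55, Umps 0.97) and at clustering resolution 2 (Paics 0.049, Gart 0.76, Umps 1.16). None of these was called in the fit as reported. Leaving out a Dox library leaves 1 library against 1, so these are values with no test. In all cells they stayed above 0 for all 10 genes, from 0.56 (Ctps) to 2.36 (Umps). Thinning to 1000 UMIs left none of the 10 genes to test in supporting cell-like, glia-like and macrophage-like cells and in cluster 6. Resolution 2 and separate clustering were not run for clusters 5 and 6. Depth limits the classes where genes have few control UMIs.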

Other observations

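Neuron-like cells (cluster 15) were too few to rank, with 6 control cells and 11 and 10 Dox cells. Their summed level of the 10 genes was 476 CPM without TMM scaling in the control and 373 and 383 with Dox. Heat shock genes (Hspa1a, Hspa1b) led cluster 14, with 517 CPM in its 10 control cells and 490 and 701 in its 24 and 33 Dox cells.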
